A study of Mus musculus with 9 samples.

Results

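The mouse Fc receptor genes Fcgr1, Fcgr3, Fcgr4, Fcer1g, Fcgr2b and Fcgrt are described here. They were chosen by gene symbol and are 6 of the 46078 genes of the deposited expression table. The RNA came from 9 libraries of cultured C57BL/6J macrophages, 3 per culture. FLM_G were fetal liver macrophages kept in 30 ng/ml recombinant mouse GM-CSF with 10% fetal bovine serum. FLM_M were fetal liver macrophages kept in medium with 20% fetal bovine serum and 30% supernatant of L cells, which secrete M-CSF. BMM were bone marrow macrophages, whose medium the labels do not describe. Fetal livers were taken at gestational day 15 to 19, and all cells had been cultured for at least 8 weeks. Tissue of origin and medium cannot be told apart in the comparisons with BMM, and FLM_G and FLM_M differ in serum as well as in growth factor. Each group was plated as triplicate wells of 250000 cells, and nothing says that the wells came from separate animals or cultures, so the tests rest on the spread among these libraries, and that may be technical in part or whole.

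Fc receptors bind the constant part of antibodies and let a macrophage take up or react to what the antibody has coated. Fcgr1, Fcgr3 and Fcgr4 code for the activating IgG receptors of the mouse, which depend on the signalling chain encoded by Fcer1g and its tyrosine-based activation motif. Fcgr2b codes for the inhibitory IgG receptor, whose own tyrosine-based inhibition motif recruits the phosphatase SHIP-1, so that the balance of both kinds sets the threshold of the response to immune complexes. Fcgrt codes for the neonatal Fc receptor, which pairs with beta-2 microglobulin inside the cell and returns IgG and albumin to the outside.

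All levels are FPKM (fragment counts divided by transcript length and library depth) scaled between libraries, given per library or as mean ± SD over 3 libraries. Being per length, FPKM of different genes are set side by side here. Such comparisons are rough, since genes differ in their transcripts and in the sequence they share with other genes. Log2 changes were computed from log2(FPKM + 1), so those of low genes are too small, and their standard errors (SE) come from a limma fit over all 11952 genes that reached 1 FPKM in at least 3 libraries. A gene was called at a Benjamini-Hochberg adjusted p under 0.05. All 6 members passed the filter. The smallest FPKM steps put the libraries at 28500000 to 35700000 reads. Libraries of the same culture correlated across genes at Pearson 0.986 to 0.992, and those of different cultures at 0.785 to 0.936. The scaling matters for FLM_G: in deposited FPKM the median gene lay at a log2 change of -0.34 in FLM_G against BMM and -0.39 against FLM_M, and at 0.05 in FLM_M against BMM. All 8 macrophage markers were found in every culture, and their summed level was 27713 to 27950 FPKM in FLM_G, 6306 to 6471 in FLM_M and 8106 to 8518 in BMM, most of it Lyz2. Single markers went both ways: Csf1r averaged 119 FPKM in FLM_G, 433 in FLM_M and 368 in BMM, and Itgam 26.5, 96.3 and 79.6 in the same cultures. Adgre1 and Cd14 were also lowest in FLM_G, at 72.0 and 34.4 FPKM, against 139.7 and 202 in FLM_M and 201 and 78.2 in BMM, while Mertk and Cd63 were highest there. The cultures also differed in sex-linked RNA, since Xist averaged 48.5 FPKM in FLM_G and 70.9 in FLM_M but 0.00201 in BMM, while Ddx3y stood at 0.0055, 0 and 9.20 FPKM in the same order of cultures. Sex and culture cannot be told apart in the comparisons with BMM.

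Against BMM, 5 of the 6 genes were called higher in FLM_M and none lower, with 22.7% of all tested genes called higher, 21.9% called lower and 44.6% called in either direction. In FLM_G against BMM, 3 were called higher and 2 lower, where 33.8% of all genes were called higher, 34.1% lower and 68.0% in all. In FLM_G against FLM_M, 1 was called higher and 4 lower, beside 35.5% and 35.1% of all genes, 70.6% together. Calls were so common that a call by itself says little, and the sizes below carry the description. The median log2 change of the 6 genes was 1.21 in FLM_M against BMM, 0.95 in FLM_G against BMM and -0.64 in FLM_G against FLM_M. Over all genes the median was 0.00 in each comparison, a value that follows from the scaling. In deposited FPKM the medians of the 6 genes were 1.28, 0.53 and -1.12 in the same order, against 0.05, -0.34 and -0.39 over all genes. In FLM_G against FLM_M, 0 members were then called higher and 6 lower, beside 2218 higher and 7075 lower over all genes. The comparisons with BMM share its 3 libraries, and those with FLM_G or FLM_M share theirs, so none is independent of the others.

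**Figure D1:**
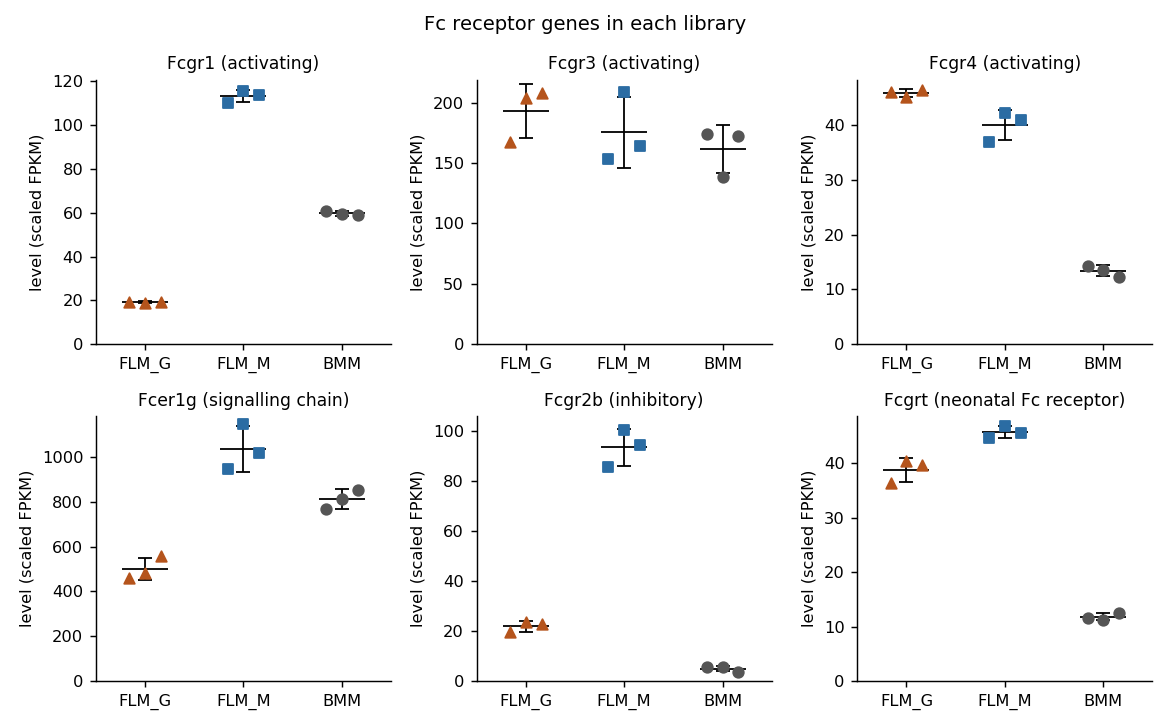
Level of each Fc receptor gene in scaled FPKM (vertical axes, each starting at 0) in the 3 libraries of FLM_G, FLM_M and BMM. Points are libraries, the long bar is the mean and the error bar the SD. Fcgr2b was at 93.6 FPKM in FLM_M, 21.9 in FLM_G and 4.91 in BMM, while the 3 groups of Fcgr3 overlap.

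The inhibitory receptor gene Fcgr2b (ENSMUSG00000026656, GRCm38 chromosome 1, 170958617 to 170976547, minus strand) had the largest change of the 6 genes in FLM_M against BMM. In scaled FPKM it also had the largest change in FLM_G against BMM. It stood at 85.7, 101 and 94.3 FPKM in FLM_M, against 5.61, 5.39 and 3.73 FPKM in BMM. In FLM_G it stood at 19.4, 23.5 and 22.8 FPKM. Every FLM_M library lay above every FLM_G library, and every FLM_G library above every BMM library. The means of FLM_M and BMM, 93.6 ± 7.5 and 4.91 ± 1.03 FPKM, differed 19.1-fold (log2 change 4.01, SE 0.13, limma adjusted p = 4.51e-08). FLM_G lay 4.46-fold above BMM (log2 change 1.97, SE 0.13, adjusted p = 1.73e-06) and fell to 0.234 of the FLM_M mean (log2 change -2.05, SE 0.13, adjusted p = 1.15e-06). In BMM the gene ranked 7053rd of 11952 tested genes by level, in FLM_G 2534th and in FLM_M 496th. In deposited FPKM the log2 change in FLM_G against BMM was 1.58 for Fcgr2b and -1.99 for Fcgr1. In the count table edgeR gave 2.45 for Fcgr2b and 2.52 for Fcgr4 in that comparison, so this rank depended on the processing.

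Fcgr2b is also a gene of B cells and of liver sinusoidal endothelium, so markers of both were read in the same libraries. Of the B cell markers, Cd79a and Pax5 were listed at 0 in all 9 libraries, and Cd22 averaged 16.4 FPKM in FLM_G, 0.587 in FLM_M and 0.255 in BMM. Of 6 endothelial markers, Clec4g was listed at 0 throughout, and Stab2 and Lyve1 averaged at most 0.0829 and 0.0198 FPKM in any culture. The summed endothelial level was 4.25 to 4.45 FPKM in FLM_G, 6.50 to 8.49 in FLM_M and 1.35 to 1.47 in BMM, carried in FLM_M by Kdr at 6.63 ± 0.91 and in FLM_G by Cdh5 at 4.28. The part of these genes in the Fcgr2b result was not tested. The marker lists of mast cells and basophils, neutrophils, dendritic cells and NK cells each summed to at most 0.375 FPKM in any library. Hepatocyte markers summed to at most 2.57 FPKM, all from Afp, with Alb at 0 throughout, and erythroid and stromal markers to at most 0.204 and 0.165. In these bulk samples, more cells with a transcript and more of it per cell cannot be told apart.

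The RefSeq promoter windows (GRCm38.p6, 300 bases around the transcript start) of 3 members are shown because the genes order the cultures differently: Fcgr2b was highest in FLM_M, Fcgr4 was lowest in BMM, and Fcgr1 was lowest in FLM_G. The windows are chr1:170976022-170976321 (minus strand), chr1:171018676-171018975 (plus strand) and chr3:96293920-96294219 (minus strand). Capitals mark matches, on either strand, to TTCNNNGAA (the STAT-binding GAS element), GAAANNGAA (a repeat bound by interferon regulatory factors) or GAGGAA (the core bound by the myeloid factor PU.1), and no matches overlapped.
Fcgr2b: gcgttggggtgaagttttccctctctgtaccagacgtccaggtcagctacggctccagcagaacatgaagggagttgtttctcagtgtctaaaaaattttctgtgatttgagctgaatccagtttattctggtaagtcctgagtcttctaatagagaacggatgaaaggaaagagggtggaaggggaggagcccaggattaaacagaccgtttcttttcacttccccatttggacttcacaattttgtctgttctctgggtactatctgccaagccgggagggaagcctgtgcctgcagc
Fcgr4: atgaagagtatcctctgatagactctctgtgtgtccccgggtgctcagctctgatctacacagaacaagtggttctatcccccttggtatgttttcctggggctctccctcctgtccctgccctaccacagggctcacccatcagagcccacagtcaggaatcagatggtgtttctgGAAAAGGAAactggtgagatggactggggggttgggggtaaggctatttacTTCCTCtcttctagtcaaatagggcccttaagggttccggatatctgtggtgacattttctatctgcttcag
Fcgr1: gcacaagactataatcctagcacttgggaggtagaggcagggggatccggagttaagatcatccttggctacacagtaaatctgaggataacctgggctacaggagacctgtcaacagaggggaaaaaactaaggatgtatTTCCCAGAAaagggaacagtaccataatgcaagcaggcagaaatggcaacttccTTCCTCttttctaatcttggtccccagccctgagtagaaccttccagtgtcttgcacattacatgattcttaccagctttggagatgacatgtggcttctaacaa
The Fcgr2b window held none of the 3 motifs. The Fcgr4 window held 1 GAAANNGAA match and 1 GAGGAA match, and the Fcgr1 window 1 TTCNNNGAA match and 1 GAGGAA match. Among 27026 promoter windows of 300 bases, 8.47% held TTCNNNGAA, 8.57% GAAANNGAA and 28.3% GAGGAA. The windows of Fcer1g and Fcgrt held none, and those of Fcgr3 held 1 GAGGAA match each. A match is a run of letters and not a site.

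Among the activating receptors, Fcgr1, the high-affinity IgG receptor gene that interferon-gamma is known to induce (ENSMUSG00000015947, chromosome 3, 96282909 to 96293969, minus strand), had the largest difference between FLM_G and FLM_M. Fcgr4 changed more than Fcgr1 in FLM_M against BMM. In FLM_G against BMM the order depended on the scaling. The log2 changes of Fcgr4 and Fcgr1 were 1.70 and -1.58 with the scaling used here, but 1.30 and -1.99 in deposited FPKM. Fcgr1 stood at 19.5, 18.9 and 19.5 FPKM in FLM_G, against 60.9, 59.3 and 59.0 in BMM. In FLM_M it stood at 110.2, 116 and 114 FPKM. No 2 cultures overlapped, and the libraries of each lay close together. FLM_M lay 1.90-fold above BMM (log2 change 0.91, SE 0.04, limma adjusted p = 2.05e-07), and FLM_G fell to 0.323 of BMM (log2 change -1.58, SE 0.04, adjusted p = 2.03e-09). FLM_G fell to 0.170 of FLM_M (log2 change -2.49, SE 0.04, adjusted p = 1.00e-10).

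Fcgr4, the gene of the mouse activating receptor with intermediate affinity for IgG (ENSMUSG00000059089, chromosome 1, 171018920 to 171029761, plus strand), was higher in both fetal liver cultures. It stood at 46.1, 45.1 and 46.5 FPKM in FLM_G and at 37.0, 42.3 and 41.0 in FLM_M, against 14.3, 13.6 and 12.3 in BMM. FLM_M lay 2.99-fold above BMM (log2 change 1.51, SE 0.07, limma adjusted p = 2.66e-07) and FLM_G 3.42-fold (log2 change 1.70, SE 0.07, adjusted p = 4.31e-08). Between FLM_G and FLM_M the means were 45.9 and 40.1 FPKM without overlap, a log2 change of 0.19 (SE 0.07, adjusted p = 0.0302). The direction of that last difference depended on the scaling, since in deposited FPKM it was -0.28 (adjusted p = 0.00457). It also missed the threshold without FLM_M replicate 1 (adjusted p = 0.124), FLM_M replicate 3 (0.0635) or FLM_G replicate 3 (0.0525), and with upper-quartile scaling (0.0721). In the count table the difference was not called and had the other sign in edgeR (-0.15, adjusted p = 0.805).

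Fcgr3, the low-affinity activating receptor gene (ENSMUSG00000059498, chromosome 1, 171051174 to 171064935, minus strand), was the member with no call in the scaled FPKM. It stood at 168, 204 and 208 FPKM in FLM_G, at 153, 209 and 164 in FLM_M and at 174, 139 and 172 in BMM. The ranges of all 3 cultures overlapped. The log2 change was 0.25 in FLM_G against BMM (95% interval -0.07 to 0.58, limma adjusted p = 0.139), 0.11 in FLM_M against BMM (-0.21 to 0.43, adjusted p = 0.559) and 0.14 in FLM_G against FLM_M (-0.18 to 0.46, adjusted p = 0.390). The sign of both FLM_G differences turned in deposited FPKM, to -0.17 (adjusted p = 0.293) against BMM and -0.34 (adjusted p = 0.0444) against FLM_M, and that of FLM_M against BMM was -0.0092 without FLM_M replicate 2. In the count table edgeR called Fcgr3 higher in FLM_M (0.77, adjusted p = 0.0373) and in FLM_G (0.70, adjusted p = 0.0478) against BMM, and DESeq2 did not (adjusted p = 0.203 and 0.195). Fcgr3 was the highest of the 4 Fc gamma receptor genes in every culture.

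Fcgr3 and Fcgr2b lie in the same cluster and code for closely related extracellular parts, so some reads could be assigned to either. Their coding sequences were 86.7% identical over 782 aligned bases, against 64.1% to 68.6% for the other pairs of the 4 receptors. The longest stretch they share exactly is 129 coding bases across 2 exons (GRCm38, minus strand, chr1:170966674-170968081 in Fcgr2b and chr1:171054167-171057792 in Fcgr3, introns included), shown because a read of 101 bases inside it names neither gene.
Fcgr2b and Fcgr3: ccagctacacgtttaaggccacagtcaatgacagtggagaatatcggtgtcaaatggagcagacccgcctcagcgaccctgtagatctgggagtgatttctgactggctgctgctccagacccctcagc
Of the distinct windows of 101 bases in its annotated transcripts, Fcgr3 shared 42 of 1733 (2.42%) with another gene, all with Fcgr2b. Fcgr2b shared 247 of 5846 (4.23%), of which 42 with Fcgr3 and the most, 127, with Cplx2. Matches to either strand of a transcript were counted, and one to the opposite strand need not be shared in stranded reads. Fcgr1, Fcgr4, Fcer1g and Fcgrt shared none. These are shares of windows and not of reads. In BMM Fcgr3 averaged 162 FPKM and Fcgr2b 4.91, so shared reads could weigh most on Fcgr2b there. Their part in the BMM level of Fcgr2b, and in ratios over it, was not tested. The antisense gene Gm38204, which overlaps Fcgr2b, was listed at 0 in all 9 libraries.

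Fcer1g (ENSMUSG00000058715, chromosome 1, 171229572 to 171234365, minus strand), whose product carries the signal of the activating receptors, had the highest level of the 6 genes in every culture. It stood at 461, 483 and 557 FPKM in FLM_G and at 945, 1146 and 1017 in FLM_M, against 766, 813 and 854 in BMM. No cultures overlapped. FLM_G fell to 0.617 of BMM (log2 change -0.70, SE 0.09, limma adjusted p = 0.000188) and to 0.483 of FLM_M (log2 change -1.05, SE 0.09, adjusted p = 1.10e-05). Against BMM the Fcer1g change was -1.12 in deposited FPKM, and in the count table it was not called by edgeR (-0.38, adjusted p = 0.279) or DESeq2 (-0.43, adjusted p = 0.219). FLM_M was 1.28-fold above BMM (log2 change 0.35, SE 0.09, adjusted p = 0.0160), a call lost without BMM replicate 1 (adjusted p = 0.0613). Relative to the summed FPKM of the 3 activating receptors, Fcer1g stood at 1.94 ± 0.12 in FLM_G, 3.15 ± 0.03 in FLM_M and 3.47 ± 0.39 in BMM. The FLM_G ratios of 1.81 to 2.03 lay below all ratios of the other cultures, while those of FLM_M (3.13 to 3.18) fell inside the range of BMM (3.07 to 3.84).

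The related adaptor gene Tyrobp, whose product also carries a tyrosine-based activation motif, was highest in FLM_G, where Fcer1g was lowest. Tyrobp averaged 2408 ± 196 FPKM in FLM_G, against 1037 ± 96 in FLM_M and 914 ± 8 in BMM. It rose in FLM_G against BMM (log2 change 1.39, SE 0.08, limma adjusted p = 7.76e-07) and against FLM_M (log2 change 1.21, SE 0.08, adjusted p = 1.75e-06). In FLM_M against BMM the log2 change of Tyrobp was 0.18 (SE 0.08, adjusted p = 0.120), and 0.24 in deposited FPKM (adjusted p = 0.0328). Cd247, the zeta chain of the T cell receptor, was listed at 0 in all libraries.

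Fcgrt, the neonatal Fc receptor gene (ENSMUSG00000003420, chromosome 7, 45092990 to 45103851, minus strand), was higher in both fetal liver cultures. It stood at 36.3, 40.4 and 39.6 FPKM in FLM_G and at 44.6, 46.8 and 45.6 in FLM_M, against 11.6, 11.2 and 12.5 in BMM. FLM_M lay 3.88-fold above BMM (log2 change 1.87, SE 0.06, limma adjusted p = 2.69e-08) and FLM_G 3.29-fold (log2 change 1.64, SE 0.06, adjusted p = 1.80e-08). FLM_G fell slightly below FLM_M, by 0.23 on the log2 scale (SE 0.06, adjusted p = 0.00562), with no overlap of libraries. The Fcgrt difference was -0.71 in deposited FPKM (adjusted p = 2.07e-06), and it was not called in the counts by edgeR (adjusted p = 0.404) or DESeq2 (0.687). DESeq2 did not call Fcgrt in FLM_G against BMM (1.79, adjusted p = 0.124). Its partner gene B2m averaged 3288 ± 184 FPKM in FLM_G and 3445 ± 134 in FLM_M, against 2150 ± 86 in BMM. B2m was called higher in FLM_M (log2 change 0.68, adjusted p = 6.87e-05) and in FLM_G (0.61, adjusted p = 6.22e-05) against BMM. Between FLM_G and FLM_M it differed by -0.07 (SE 0.07, adjusted p = 0.411). In deposited FPKM the B2m difference was -0.56 between FLM_G and FLM_M (adjusted p = 5.49e-05) and 0.19 in FLM_G against BMM (adjusted p = 0.0286).

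The ratio of activating to inhibitory transcripts, the summed FPKM of Fcgr1, Fcgr3 and Fcgr4 over that of Fcgr2b, does not depend on the scaling between libraries. It stood at 12.0, 11.4 and 12.0 in FLM_G and at 3.51, 3.64 and 3.39 in FLM_M, against 44.5, 39.2 and 65.3 in BMM. No 2 cultures overlapped, and BMM replicate 3, the library with the least Fcgr2b, had the highest ratio. The means were 11.8 ± 0.4 in FLM_G, 3.51 ± 0.13 in FLM_M and 49.7 ± 13.8 in BMM. The ratio is given as a description, with no test. Its denominator moved far more than its numerator, whose sum was 258 ± 22 FPKM in FLM_G, 329 ± 34 in FLM_M and 235 ± 20 in BMM. Fcgr2b made up 7.82% ± 0.22 of the summed FPKM of all 4 receptors in FLM_G, 22.2% ± 0.6 in FLM_M and 2.06% ± 0.50 in BMM.

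**Figure D2:**
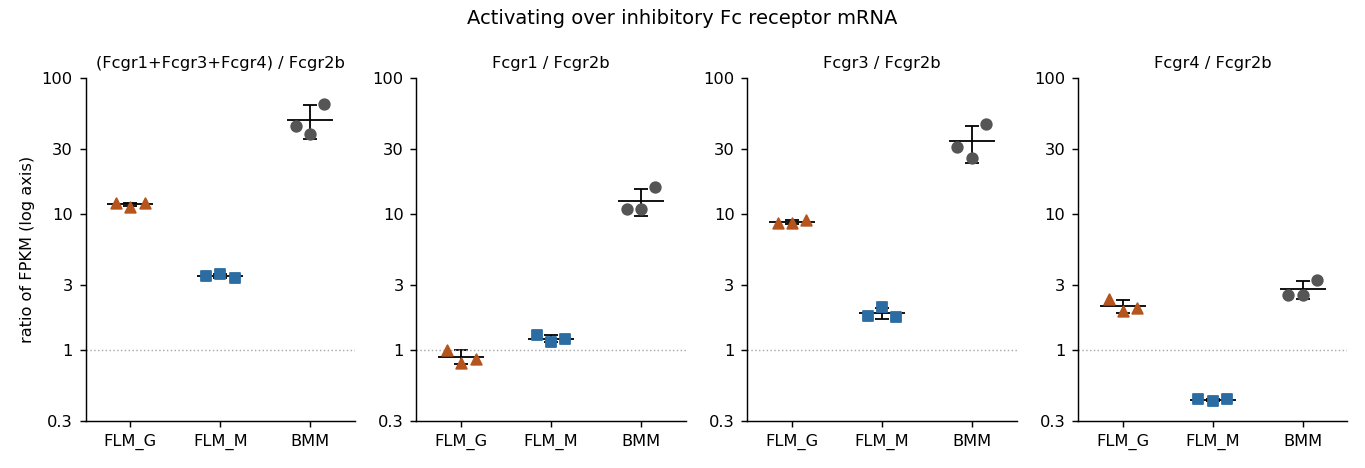
Ratios of activating to inhibitory Fc receptor FPKM (vertical axes, logarithmic) in each library of FLM_G, FLM_M and BMM, for the sum and for each activating gene over Fcgr2b. Points are libraries, with mean and SD, and the dotted line marks a ratio of 1. The summed ratio was 11.8 in FLM_G, 3.51 in FLM_M and 49.7 in BMM.

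Taken singly, the activating receptors did not give the same order of cultures. Fcgr1 over Fcgr2b was 0.887 ± 0.104 in FLM_G, 1.21 ± 0.07 in FLM_M and 12.6 ± 2.8 in BMM, so that FLM_G had the lowest value here. Fcgr3 over Fcgr2b was 8.80 ± 0.27 in FLM_G, 1.87 ± 0.18 in FLM_M and 34.3 ± 10.6 in BMM. Fcgr4 over Fcgr2b was 2.11 ± 0.24 in FLM_G, 0.429 ± 0.008 in FLM_M and 2.79 ± 0.44 in BMM. The Fcgr4 ratios of FLM_G, 1.92 to 2.37, came close to those of BMM, 2.53 to 3.29, without overlap. In FLM_M the inhibitory transcript stood above Fcgr4 in every library and below Fcgr1 and Fcgr3.

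The make-up of the activating pool also differed. Fcgr3 supplied 74.6% ± 2.4 of its FPKM in FLM_G, 53.2% ± 3.3 in FLM_M and 68.7% ± 2.8 in BMM. Fcgr1 supplied 7.51% ± 0.73 in FLM_G, 34.6% ± 2.7 in FLM_M and 25.5% ± 2.1 in BMM. Fcgr4 supplied 17.9% ± 1.6 in FLM_G, 12.2% ± 0.7 in FLM_M and 5.74% ± 0.70 in BMM. The second most abundant activating receptor was thus Fcgr4 in all FLM_G libraries and Fcgr1 in all FLM_M and BMM libraries.

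**Figure D3:**
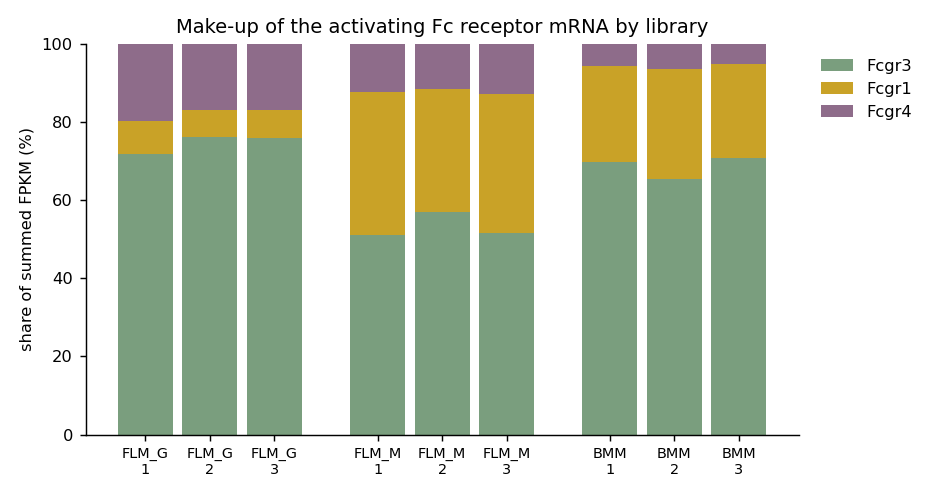
Share of Fcgr3, Fcgr1 and Fcgr4 in the summed FPKM of the activating receptors (vertical axis, percent), with a stacked bar for each library. Fcgr1 supplied 7.51% in FLM_G, 34.6% in FLM_M and 25.5% in BMM on average.

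Among the nearest protein-coding neighbours of the Fcgr2b, Fcgr4 and Fcgr3 cluster on chromosome 1, Sdhc alone was high enough to be tested. On the Fcgr2b side Fcrla, Fcrlb and Gm26620 averaged at most 0.336, 0.939 and 0.435 FPKM in any culture. Fcrla and Fcrlb were listed at 0 in all BMM libraries and averaged 0.336 and 0.939 FPKM in FLM_G and 0.180 and 0.450 in FLM_M. On the Fcgr3 side Cfap126 averaged at most 0.515 FPKM in any culture. Sdhc, a subunit of succinate dehydrogenase 62.2 kb away, averaged 19.5 ± 0.5 FPKM in FLM_G, 33.7 ± 2.1 in FLM_M and 36.1 ± 1.7 in BMM. Sdhc fell in FLM_G against BMM (log2 change -0.86, limma adjusted p = 1.80e-06) and differed by -0.10 in FLM_M against BMM (adjusted p = 0.208).

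Genes with the most similar pattern were sought by the smallest root mean square difference of the centred log2 levels over the 9 libraries, among 10411 named genes. Nearest to Fcgr2b was Colec12, a scavenger receptor gene, with a difference of 0.22 log2 units. Colec12 stood at 69.6 FPKM in FLM_G, 223 in FLM_M and 14.1 in BMM. The next, Stk32c and Cdkn2a, differed by 0.52 and 0.58. For Fcgr1 the nearest were Tmem206, Dhx58 (a cytosolic RNA sensor of the RIG-I family) and Slc30a4, at 0.05 to 0.10 log2 units. For Fcgr4 they were Snx7, Cxcl2 and Optn, at 0.12 to 0.15. Fcer1g was closest to Samd1, Dynlt1f and Zfp938 (0.05 to 0.07), Fcgrt to Sh3bgrl2, Zranb3 and Tsku (0.12 to 0.16), and Fcgr3 to Dmap1, Tango2 and Mrps17 (0.07 to 0.10). The measure compares changes of log2(FPKM + 1), which are too small for low genes, so the level enters for these. Slc30a4, for example, averaged 0.373 FPKM in FLM_G and 6.75 in FLM_M, against 19.3 and 113 for Fcgr1. The difference is not divided by the size of a member's own changes, so it cannot be compared between members.

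Of 14 other Fc receptor and Fc receptor-like genes, 8 were listed at 0 in every library, among them Fcer1a and Ms4a2 of the IgE receptor, Fcer2a, Fcamr, Fcmr and Pigr. Another 3 stayed under 1 FPKM in every library, and 3 were tested. Fcrls, an Fc receptor-like gene of macrophages and microglia, averaged 0.0458 ± 0.0419 FPKM in FLM_G, 60.5 ± 2.0 in FLM_M and 70.6 ± 3.3 in BMM. It fell in FLM_G against BMM (log2 change -6.10, SE 0.05, limma adjusted p = 7.86e-12) and against FLM_M (log2 change -5.88, SE 0.05, adjusted p = 7.24e-12), and by 0.22 in FLM_M against BMM (adjusted p = 0.0111). Fcrl1 averaged 0.0187 FPKM in FLM_G, 3.27 in FLM_M and 2.55 in BMM. Trim21, the cytosolic antibody receptor, averaged 4.18 ± 0.33 in FLM_G, 17.2 ± 1.0 in FLM_M and 10.4 ± 0.3 in BMM. Trim21 thus ordered the cultures as Fcgr1 did, with a log2 change of 0.68 in FLM_M and -1.14 in FLM_G against BMM (adjusted p = 4.30e-05 and 5.55e-07).

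Downstream of the activating receptors, Src-family kinases phosphorylate the common chain, Syk docks on it, and adaptors, lipid enzymes and exchange factors carry the signal on. Of 21 such genes 20 were tested, and FLM_G differed from BMM in 19, with 12 higher and 7 lower (median log2 change 0.43), where 68.0% of all tested genes were called, 33.8% higher and 34.1% lower. In deposited FPKM the numbers were 9 higher and 8 lower, with a median of 0.03, beside 2081 higher and 6775 lower over all genes. In FLM_M against BMM 3 of the list were higher and 7 lower (median -0.08, with 44.6% of all genes called). In FLM_G against FLM_M 12 were higher and 6 lower (median 0.54, with 70.6% of all genes called). In deposited FPKM that last comparison gave 8 higher and 8 lower with a median of 0.06, beside 2218 higher and 7075 lower over all genes. The kinase gene Syk averaged 67.0 ± 1.7 FPKM in FLM_G, 14.3 ± 1.5 in FLM_M and 21.4 ± 0.1 in BMM. It rose in FLM_G against BMM (log2 change 1.60, SE 0.07, limma adjusted p = 7.75e-08) and FLM_M (2.16, SE 0.07, adjusted p = 9.16e-09), and fell in FLM_M against BMM (-0.56, SE 0.07, adjusted p = 0.000213).

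Within the Src family the genes ordered the cultures differently. Fgr averaged 51.0 ± 2.8 FPKM in FLM_G, 0.00921 ± 0.00802 in FLM_M and 1.87 ± 0.12 in BMM, and rose in FLM_G against BMM (log2 change 4.18, SE 0.06, limma adjusted p = 7.90e-11). Fyn had the reverse order, with 0.387 ± 0.036 in FLM_G, 27.6 ± 0.7 in FLM_M and 17.4 ± 0.1 in BMM (FLM_G against BMM -3.73, SE 0.05, adjusted p = 4.39e-11). Lyn averaged 67.3 ± 1.1 in FLM_G, 46.1 ± 2.3 in FLM_M and 52.4 ± 1.0 in BMM. The Lyn difference of FLM_G from BMM, 0.35 (adjusted p = 0.000140), was -0.06 in deposited FPKM. The adaptor gene Lat2 fell to 1.22 ± 0.23 FPKM in FLM_G, against 64.9 ± 0.7 in FLM_M and 69.4 ± 2.9 in BMM (log2 change against BMM -4.99, SE 0.07, adjusted p = 9.92e-11). Vav2, an exchange factor gene, averaged 12.7 ± 0.5 in FLM_G, 2.51 ± 0.10 in FLM_M and 2.66 ± 0.17 in BMM (FLM_G against BMM 1.91, SE 0.06, adjusted p = 8.10e-09). In FLM_M against BMM, Fgr fell by 1.51, Pik3r1 by 0.57 and Syk as above, while Fyn rose by 0.64 (largest adjusted p = 0.000500).

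Of 10 genes on the inhibitory side (phosphatases, DOK adaptors and ubiquitin ligases), 1 was higher and 6 lower in FLM_G against BMM (median log2 change -0.66), 1 higher and 3 lower in FLM_M against BMM (-0.15), and 1 higher and 6 lower in FLM_G against FLM_M (-0.41). These totals lie near the 68.0%, 44.6% and 70.6% of all genes called in those comparisons. In deposited FPKM the FLM_G counts were 1 higher and 8 lower against BMM, and 1 higher and 9 lower against FLM_M. Over all genes the FLM_G calls in deposited FPKM were 2081 higher and 6775 lower against BMM, and 2218 and 7075 against FLM_M. Lower calls thus prevailed over all genes as well. Inpp5d, which codes for SHIP-1, the phosphatase recruited by the Fcgr2b product, averaged 17.2 ± 0.6 FPKM in FLM_G, 32.1 ± 3.1 in FLM_M and 44.4 ± 1.2 in BMM. Inpp5d fell against BMM in FLM_G (log2 change -1.32, SE 0.07, limma adjusted p = 2.60e-07) and in FLM_M (-0.46, SE 0.07, adjusted p = 0.000642). It was thus lower in both cultures in which Fcgr2b was higher. Its relative Inppl1 averaged 8.09 ± 0.74 FPKM in FLM_G, 33.5 ± 1.1 in FLM_M and 29.4 ± 1.1 in BMM (FLM_G against BMM -1.74, adjusted p = 2.88e-08). Dok3 was the gene of this list that rose in FLM_G, to 94.0 ± 13.6 FPKM, against 27.6 ± 2.7 in FLM_M and 48.4 ± 2.9 in BMM. The other DOK adaptor genes fell in FLM_G against BMM, Dok1 by 0.65 and Dok2 by 0.68, as did Cblb, a ubiquitin ligase gene, by 0.86 (largest adjusted p = 6.16e-06). Ptpn6, which codes for the phosphatase SHP-1, stood at 94.3 ± 11.8 FPKM in FLM_G, 91.5 ± 8.3 in FLM_M and 74.7 ± 13.3 in BMM, with no call against BMM (adjusted p = 0.0526 in FLM_G and 0.107 in FLM_M). In deposited FPKM the Ptpn6 change in FLM_G was -0.08 against BMM (adjusted p = 0.611) and -0.44 against FLM_M (adjusted p = 0.015).

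**Figure D4:**
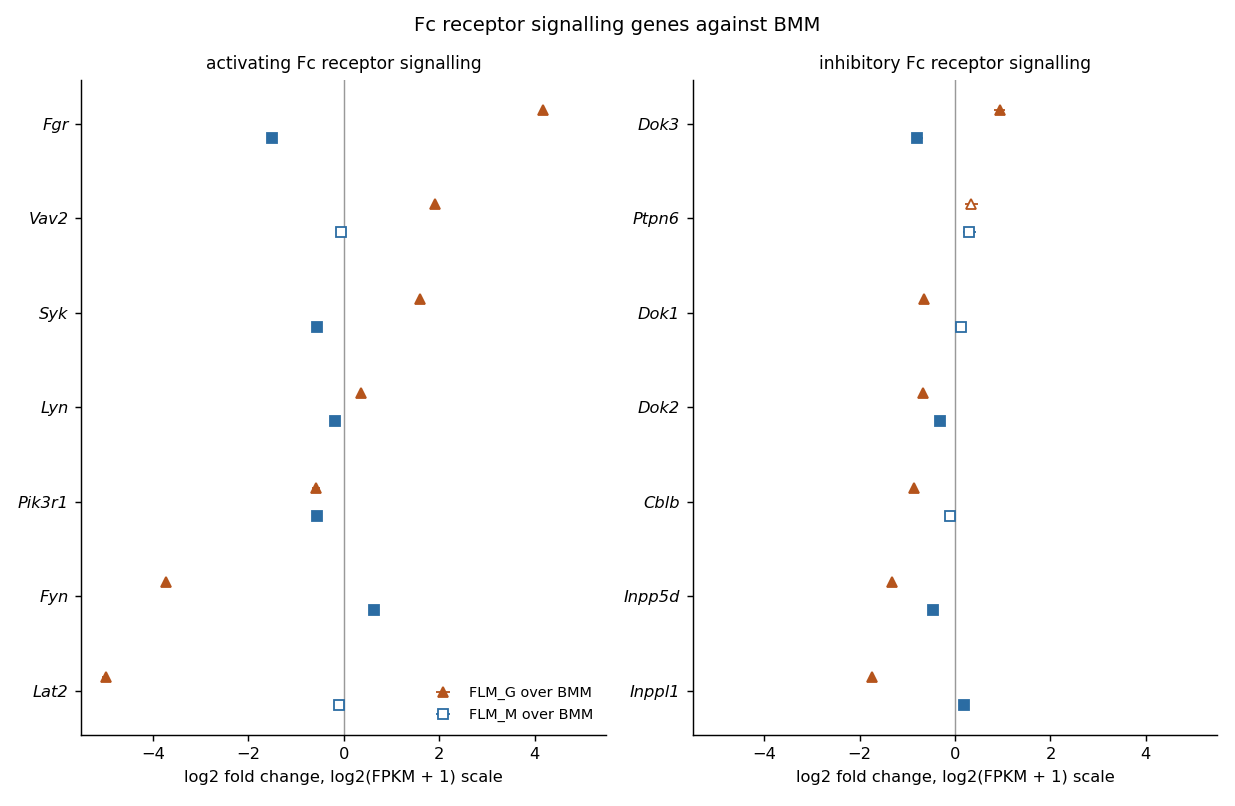
Log2 fold change against BMM (horizontal axis, log2(FPKM + 1) scale) of the 7 activating and 7 inhibitory signalling genes named in the text, for FLM_G (triangles) and FLM_M (squares). Bars are the SE of the limma fit, and filled symbols mark an adjusted p under 0.05. Fgr, at 4.18, and Lat2, at -4.99, are the extremes for FLM_G.

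Receptor engagement ends in a cup of branched actin that draws in the particle, and 16 genes of that machinery were read. Of 16 genes, 5 were higher and 7 lower in FLM_M against BMM (median log2 change -0.12), 4 higher and 7 lower in FLM_G against BMM (-0.18), and 6 higher and 7 lower in FLM_G against FLM_M (-0.19). All genes were called at 44.6%, 68.0% and 70.6% in those comparisons, so the FLM_G against BMM total in particular is near the background. In deposited FPKM the FLM_G counts were 2 higher and 13 lower against BMM, and 1 higher and 13 lower against FLM_M. Over all genes the FLM_G calls in deposited FPKM were 2081 higher and 6775 lower against BMM, and 2218 and 7075 against FLM_M. Lower calls thus prevailed over all genes as well. Myo10, a myosin of filopodia and phagocytic cups, averaged 6.02 ± 0.21 FPKM in FLM_G, 17.7 ± 2.3 in FLM_M and 3.68 ± 0.07 in BMM (FLM_M against BMM 1.99, SE 0.08, limma adjusted p = 1.90e-07). It thus followed the order of Fcgr2b. The GTPase gene Rac2 was higher than in BMM in both fetal liver cultures, at 161 ± 20 FPKM in FLM_G, 136 ± 2 in FLM_M and 85.9 ± 3.2 in BMM. Coro1a stood at 40.7 ± 3.5 in FLM_G, 125 ± 8 in FLM_M and 79.2 ± 1.1 in BMM, and Elmo1 at 6.27 ± 0.27, 18.7 ± 1.1 and 16.5 ± 0.6 in the same cultures. Cdc42 fell by 0.59 in FLM_M against BMM (adjusted p = 2.52e-05) and Wipf1 by 0.88 in FLM_G against BMM (adjusted p = 1.68e-05). Arpc5 rose by 0.97 in FLM_G against FLM_M (adjusted p = 9.80e-05).

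The deposited count table gave the members far fewer reads than the FPKM. Their counts ran from 0 to 290 per library, at most 1.65% of the reads that the FPKM imply for the longest coding transcript, and the table summed to 782400 to 1170813 per library. Fcgr2b had 17, 29 and 8 counts in FLM_G and 172, 175 and 153 in FLM_M, against 3, 6 and 3 in BMM. The edgeR quasi-likelihood test on these counts gave Fcgr2b a log2 change of 4.80 in FLM_M (adjusted p = 2.77e-17) and 2.45 in FLM_G (adjusted p = 1.07e-05) against BMM, with the same order of cultures as the FPKM. Fcgr1 also kept its order, at 1.24 in FLM_M and -1.33 in FLM_G against BMM (adjusted p = 0.000230 and 0.00254). Other members did not keep all calls: Fcer1g was not called in FLM_G against BMM, nor were Fcgrt and Fcgr4 in FLM_G against FLM_M. Fcgr3 was called higher in both comparisons with BMM, as given with each gene. Earlier work on these data found counts that follow the gene on the opposite strand. Whether the counts of these members are a sample of their own reads was not tested. The count tests are thus alternatives and no independent check of the FPKM, whether they give the same order or not.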

How the data were processed

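Stranded mRNA libraries were read for 101 cycles from 1 end, per the labels' protocols. The submitters' processing notes name HISAT2, StringTie, DESeq2, cutadapt, bcl2fastq and FastQC, and GRCm38 and mm10 as builds. For the role of each tool, nothing is given in the sources used here. The authors deposited FPKM and whole-number counts per gene for the 9 libraries. The deposited counts are few beside the reads that the FPKM imply, and earlier work found that they can follow the gene on the opposite strand. The FPKM are therefore the measure used, and count tests are alternatives.

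FPKM were scaled by unweighted TMM factors (edgeR 4.0.16; 0.80 to 1.14), filtered at 1 FPKM in at least 3 libraries and tested with limma 3.58.1 after adding 1 and taking log2. The fit, in R 4.3.3, used a mean-variance trend, 1 mean per culture and 6 residual degrees of freedom. The step was tested on simulated data with independent noise and few changed genes, which does not test the scaling between cultures. The members and gene lists were chosen with earlier results of these data known. Named are the members, the 4 largest called changes per list and comparison with at least 5 FPKM, a few central genes fixed by name, the 3 most similar genes per member, the neighbours of the cluster, and cell type and sex markers. Fcrl1 was added after its values were seen. A few list genes are not reported here. Gene positions are of GENCODE M21 (GRCm38), by Ensembl identifier. Alternatives were no, RLE or upper-quartile scaling, a pseudocount of 0.1, no filter or one of 5 FPKM, a fit of just the 6 libraries concerned, a replicate block, edgeR and DESeq2 1.42.0 on the counts, and each library left out.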

Additional observations from a re-analysis of the deposited data

How the results depend on the processing

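Of the single-member results under the alternatives, 267 kept their direction and side of the threshold, 11 no longer passed it, 2 newly passed it and 8 changed sign. Without scaling between libraries, Fcgr3 stood at -0.17 in FLM_G against BMM and -0.34 in FLM_G against FLM_M, and Fcgr4 at -0.28 in FLM_G against FLM_M. Calls over all genes then split into 3323 higher and 2240 lower in FLM_M against BMM, 2081 and 6775 in FLM_G against BMM, and 2218 and 7075 in FLM_G against FLM_M. The partner chains had 2 calls in FLM_M against BMM and 2 in FLM_G against FLM_M, instead of 1 in each (Tyrobp and B2m).

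On the sparse counts, edgeR called 1300 genes in FLM_M against BMM, 2458 in FLM_G against BMM and 2855 in FLM_G against FLM_M, and DESeq2 called 838, 2195 and 2628 in the same comparisons, against 5329, 8125 and 8441 with limma on FPKM. In FLM_G against FLM_M both called 3 members, with Fcgr3 at -0.075 and Fcgr4 at -0.15 (edgeR) or -0.063 and -0.11 (DESeq2). DESeq2 called 3 members in FLM_G against BMM. The cause was not tested.

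The activating to inhibitory ratio was 11.2 in FLM_G and 41.5 in BMM with 1 FPKM added to both sums. Without Fcgr1 it was 10.9 in FLM_G, 2.30 in FLM_M and 37.1 in BMM. Without Fcgr3 it was 3.00 in FLM_G, 1.64 in FLM_M and 15.3 in BMM. Without Fcgr4 it was 9.69 in FLM_G, 3.08 in FLM_M and 46.9 in BMM.

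With each library left out in turn, 4192 to 4932 genes were called in FLM_M against BMM, 7239 to 7652 in FLM_G against BMM and 7606 to 8001 in FLM_G against FLM_M. Fcgr3 in FLM_M against BMM ran from -0.0092 to 0.21. With the replicate number as a block, 5140, 8018 and 8386 genes were called in the same order of comparisons, and Fcgr4 in FLM_G against FLM_M missed the threshold (adjusted p = 0.0559). Same-numbered libraries deviated together by correlations of -0.0771 to 0.0899, which does not decide whether they share more than a number. In FLM_G against BMM every library correlated best with its own number, but in FLM_M against BMM no library did. In FLM_G against FLM_M only replicate 2 did. The match in FLM_G against BMM is at most a hint from the data and not from the design.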
